A study of Homo sapiens with 6 samples.

Results

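The genes that write, erase and read DNA methylation were followed through 9 of their members, which are 9 of the 35554 genes in the count table. They are the DNA methyltransferases DNMT1, DNMT3A and DNMT3B, the methylcytosine dioxygenases TET1, TET2 and TET3, the paralogs UHRF1 and UHRF2, and the methyl-CpG binding protein MBD2. They were found in the table by symbol, and the rule used no measured value, although the choice was made with earlier results of these data known. RNA sequencing was performed on LNCaP, an established androgen-sensitive line from a metastasis of human prostate carcinoma (parental, n = 3), and on LNCaP-enzaR, its enzalutamide-resistant derivative (n = 3). Enzalutamide is an inhibitor of the androgen receptor, and no genetic change was introduced into either line. According to the study's methods, resistance was obtained by continuous culture with the drug, and the cells were then kept on a lower dose. The resistant line therefore stands for 1 selection history, and the labels give 3 flasks of each line, with a library from each. Whether the drug was in the flasks at harvest was not given in the sources used here, so selection, drug exposure and growth state cannot be told apart.

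In mammalian cells, methyl groups are placed on the cytosine of CpG pairs. DNMT3A and DNMT3B act mainly on unmethylated DNA, whereas UHRF1 binds the hemimethylated CpGs left behind the replication fork and recruits DNMT1, which copies the mark to the daughter strand. TET enzymes oxidize methylcytosine, which opens a route back to cytosine, and MBD2 binds methylated CpGs and brings in the NuRD repressor complex. In prostate cancer, promoter hypermethylation of genes such as GSTP1 is a well-known feature. Methylation itself was not measured here, and the values below are transcript levels.

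Libraries held 77759122 to 98616465 counts, of which 22355 to 50258 per library fell on the 9 genes. Levels are given as CPM, counts scaled to a common library size with TMM factors and given per 1000000, as mean ± SD of 3 libraries, and 3 counts corresponded to 0.0302 to 0.0382 CPM. A log2 fold change above 0 means a higher level in LNCaP-enzaR than in parental cells, and each has its standard error (SE). Differences were tested with edgeR's quasi-likelihood test, and p-values were adjusted over the 19711 genes that passed a filter on low counts, all 9 genes among them. The threshold was an adjusted p of at most 0.05 with a fold change of at least 1.5. Mitochondrial transcripts made up 6.72% to 7.06% of the counts in parental cells and 14.7% to 15.5% in LNCaP-enzaR, and with these transcripts left out 6 of the 9 genes were again past the threshold. The labelled cell type was checked on its markers: 8 of 8 luminal prostate genes were tested, and their summed level was 4723 to 4849 CPM in parental cells and 3037 to 3333 CPM in LNCaP-enzaR. They did not move together: 5 fell, KLK3 (prostate-specific antigen) by 3.08 and KLK2 by 2.00 on the log2 scale, whereas KRT8, a luminal keratin, rose by 1.16 and KRT18 and EPCAM (0.50 and 0.41) were not past the threshold defined above. Of the leukocyte markers none passed the filter, and their summed level stayed at or below 0.216 CPM. The summed levels in parental cells and LNCaP-enzaR were 0.923 to 1.71 and 0.433 to 0.823 CPM for basal markers, 14.7 to 17.9 and 8.21 to 8.95 CPM for fibroblast markers, and 2.29 to 2.59 and 3.42 to 4.09 CPM for neuroendocrine markers. The fibroblast sum was carried by COL1A1 (−1.64 on the log2 scale), while LUM (1.78) and PDGFRB (1.43), both under 2 CPM in either line, were higher past the threshold. The part of these markers in the results was not tested.

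DNMT1, DNMT3B, TET1, UHRF1, UHRF2 and MBD2, 6 of the 9 genes, were lower in LNCaP-enzaR past the threshold, 0 were higher, and DNMT3A, TET2 and TET3 were not past it. Of all genes tested, 42.7% were past the threshold, 19.5% as lower and 23.3% as higher. The median log2 fold change was −1.17 over the 9 genes and 0.01 over all genes tested. For 8 of the 9 genes the libraries of both lines did not overlap, the exception being DNMT3A, and the same held for 70.6% of all genes tested. The summed level of the 9 genes was 543 to 549 CPM in parental cells and 259 to 266 CPM in LNCaP-enzaR. In bulk samples such as these, fewer cells of a type and less RNA per cell cannot be told apart.

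**Figure D1:**
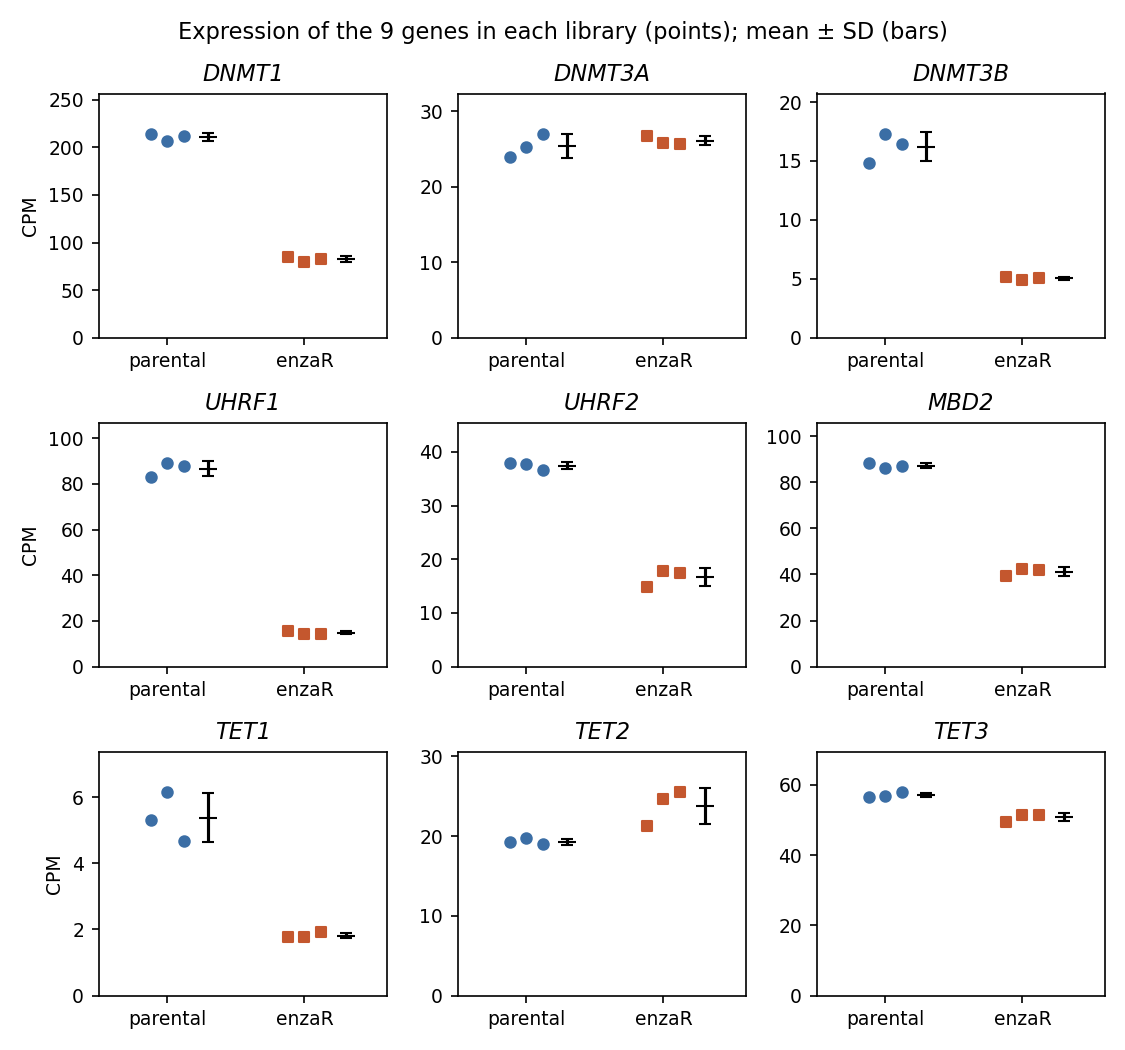
Level of each of the 9 genes in every library, as CPM, with points for the 3 libraries of parental LNCaP and of LNCaP-enzaR. UHRF1 shows the widest gap between the lines as a fold (86.7 against 14.8 CPM on average), and the points of DNMT3A overlap.

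UHRF1, the reader of hemimethylated DNA that recruits DNMT1 (ENSG00000276043.5, GRCh38 chr19:4903080-4962154, plus strand), fell most among the 9. Its level was 83.1, 89.1 and 87.9 CPM in parental libraries 1 to 3 and 15.7, 14.5 and 14.3 CPM in the LNCaP-enzaR libraries. Every resistant library lay far below every parental one. The log2 fold change was −2.55 (SE 0.066, adjusted p = 4.97e-13, edgeR), a 5.85-fold lower level, and 2.81% of all genes tested had a lower fold change.

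DNMT1, the maintenance methyltransferase (ENSG00000130816.17, chr19:10133342-10231286, minus strand), was the most abundant of the 9 by CPM in both lines. Parental libraries held 214, 206 and 212 CPM, and the resistant libraries held 85.2, 79.2 and 82.8 CPM. The libraries of a line lay close together and the lines were well separated. DNMT1 fell by 1.35 on the log2 scale (SE 0.054, adjusted p = 3.22e-11, edgeR), which is 2.56-fold lower. Of its exonic bases, 0.540% lie in exons of another gene, S1PR2.

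UHRF2, the paralog of UHRF1 with the same domain types, which is not known to replace it in maintenance (ENSG00000147854.17, chr9:6413151-6507054, plus strand), also fell. It was at 37.9, 37.8 and 36.6 CPM in parental cells and at 14.8, 17.8 and 17.4 CPM in LNCaP-enzaR. The first resistant library was the lowest, and no resistant library came near the parental range. The log2 fold change was −1.17 (SE 0.078, adjusted p = 7.63e-09, edgeR), a 2.24-fold lower level.

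The decrease was therefore compared between the paralogs inside each library, as a log2 ratio of their counts, which does not depend on library scaling. UHRF1 over UHRF2 was 1.13, 1.24 and 1.26 in the parental libraries and 0.08, −0.30 and −0.28 in the resistant ones. UHRF1 was thus the larger count in every parental library and the smaller in 2 of the 3 resistant ones, with a shift of −1.38 on the log2 scale. Which paralog is higher in LNCaP-enzaR depends on the length used. There UHRF1 made up 63.1% of their sum per base of annotated exon and 43.5% per base of the longest annotated transcript. The shift itself does not depend on length. UHRF1 over DNMT1 went from −1.28 ± 0.076 to −2.48 ± 0.046, a shift of −1.19, again without overlap. Each of the 5 ratios examined gave p = 0.10 in a two-sided exact permutation test (0.10 after Benjamini-Hochberg adjustment over the 5), which is the smallest value that 3 libraries against 3 allow.

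Of the de novo enzymes, DNMT3B (ENSG00000088305.18, chr20:32762385-32809356, plus strand) was at 14.9, 17.3 and 16.5 CPM in parental cells and at 5.15, 4.90 and 5.03 CPM in LNCaP-enzaR. The resistant libraries were nearly identical to each other and lay well under the parental ones. The log2 fold change was −1.69 (SE 0.089, adjusted p = 5.92e-10, edgeR), a 3.22-fold lower level.

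DNMT3A (ENSG00000119772.18, chr2:25227855-25342590, minus strand) was at 23.9, 25.3 and 26.9 CPM in parental cells and at 26.7, 25.7 and 25.7 CPM in LNCaP-enzaR. These ranges overlapped, and the difference was smaller than the spread between replicates. The fitted log2 fold change came to 0.04 (SE 0.069, adjusted p = 0.642, edgeR), and the sign turned (−0.0085, adjusted p = 0.937) without parental replicate 1. Inside each library, DNMT3A over DNMT3B was 0.68, 0.55 and 0.71 on the log2 scale in parental cells and 2.38, 2.39 and 2.35 in LNCaP-enzaR, a shift of 1.73 without overlap.

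Levels were set against each other per kilobase of annotated exon sequence, since genes differ in length. On that scale DNMT1 made up 76.6% ± 1.38 of the summed methyltransferase level in parental cells and 67.1% ± 0.441 in LNCaP-enzaR. The share of DNMT3A went from 10.3% ± 0.522 to 23.7% ± 0.397, and that of DNMT3B from 13.2% ± 1.00 to 9.16% ± 0.065. Thus DNMT3B was ahead of DNMT3A in parental cells and behind it in LNCaP-enzaR, and the summed level of the family went from 17.9 ± 0.214 to 7.98 ± 0.249 CPM per kilobase. With the longest annotated transcript as the length, DNMT3B again went from ahead of DNMT3A (10.4% against 7.45%) to behind it (7.47% against 17.8%).

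**Figure D2:**
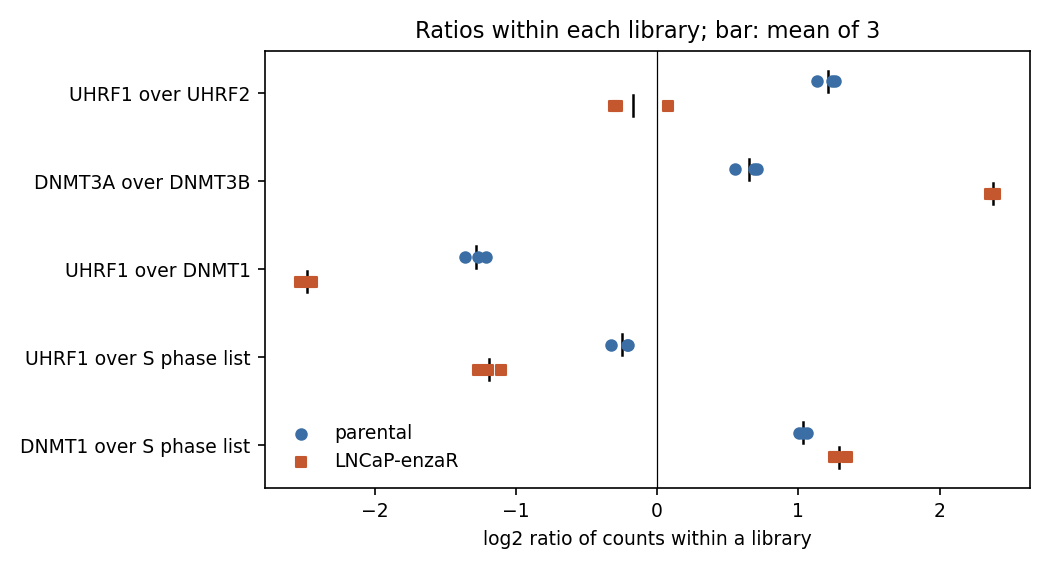
Log2 ratios taken inside each library for 5 pairs, with a point per library of parental LNCaP and LNCaP-enzaR. The ratio of DNMT3A to DNMT3B rises by 1.73, the ratios of UHRF1 to UHRF2, DNMT1 and the S phase list fall, and the lines do not overlap in any of the 5.

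Among the erasers, TET1 (ENSG00000138336.9, chr10:68560337-68694487, plus strand) was the least abundant of the 9 genes in both lines. It was at 5.29, 6.15 and 4.67 CPM in parental cells and at 1.76, 1.77 and 1.91 CPM in LNCaP-enzaR. The parental libraries were spread more widely than the resistant ones, and the lines did not overlap. TET1 fell by 1.57 on the log2 scale (SE 0.137, adjusted p = 1.40e-07, edgeR), a 2.96-fold lower level.

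TET2, which lacks the CXXC DNA-binding domain of TET1 and TET3 (ENSG00000168769.14, chr4:105145875-105279816, plus strand), was at 19.2, 19.7 and 19.0 CPM in parental cells and at 21.2, 24.7 and 25.5 CPM in LNCaP-enzaR. All 3 resistant libraries lay above the parental ones, the first by little. The log2 fold change of 0.30 (SE 0.079, adjusted p = 0.00381, edgeR), or 1.23-fold, was below the minimum fold of the threshold. With the same limit on the adjusted p and any fold, 8 of the 9 genes were called, as were 66.3% of all genes tested.

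TET3 (ENSG00000187605.16, chr2:73984910-74108176, plus strand) was at 56.6, 56.8 and 57.9 CPM in parental cells and at 49.4, 51.4 and 51.4 CPM in LNCaP-enzaR. The resistant libraries were lower by a small margin without overlap, and the log2 fold change of −0.17 (SE 0.057, adjusted p = 0.0163, edgeR) did not reach the minimum fold. With upper-quartile scaling its adjusted p was 0.300.

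Per kilobase, the summed TET level was 6.14 ± 0.075 CPM in parental cells and 5.55 ± 0.236 CPM in LNCaP-enzaR. TET3 held most of it in both lines, with 71.8% ± 1.33 and 70.6% ± 1.39, ranges that overlapped. TET2 went from 19.1% ± 0.184 to 26.0% ± 1.42, and TET1 from 9.09% ± 1.16 to 3.40% ± 0.130, both without overlap.

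MBD2, the methyl-CpG reader (ENSG00000134046.12, chr18:54151606-54224669, minus strand), was at 88.3, 86.4 and 87.1 CPM in parental cells and at 39.2, 42.6 and 42.2 CPM in LNCaP-enzaR. The parental libraries were within a narrow range, and each resistant library was below all of them. MBD2 fell by 1.08 on the log2 scale (SE 0.059, adjusted p = 8.12e-10, edgeR), a 2.11-fold lower level.

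Per kilobase of exon, the order in parental cells was UHRF1 (16.8 CPM), MBD2 (15.3), DNMT1 (13.7), TET3 (4.41), UHRF2 (3.78), DNMT3B (2.36), DNMT3A (1.84), TET2 (1.17) and TET1 (0.559), and no neighbours in that order overlapped. In LNCaP-enzaR it was MBD2 (7.26 CPM), DNMT1 (5.36), TET3 (3.92), UHRF1 (2.88), DNMT3A (1.89), UHRF2 (1.68), TET2 (1.44), DNMT3B (0.731) and TET1 (0.189), where UHRF2 and TET2 overlapped. UHRF1 thus went from the highest place to the fourth. The order moved with the length used, and with the longest annotated transcript DNMT1 was at the top in both lines while TET1 was at the bottom in both.

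**Figure D3:**
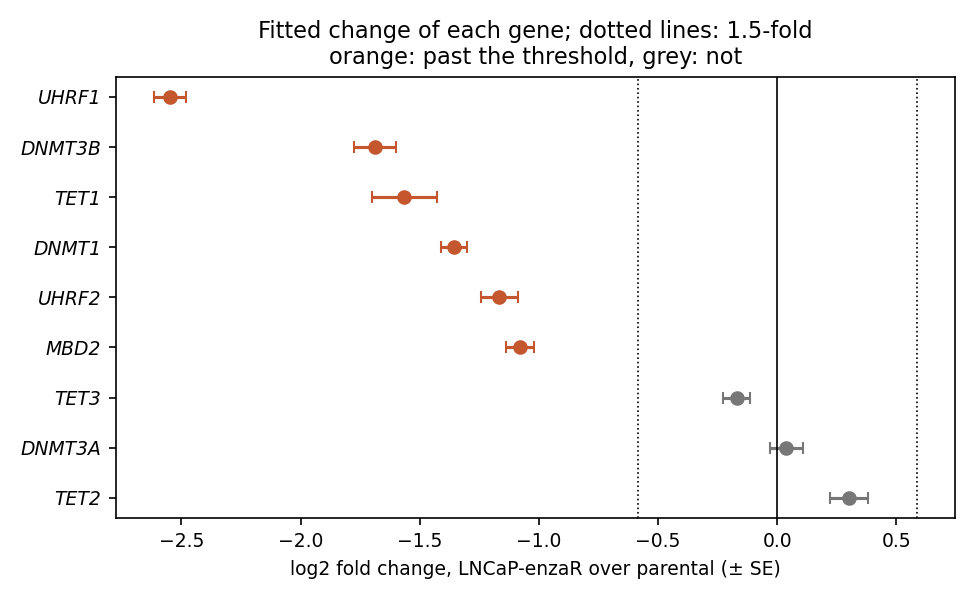
Log2 fold change of the 9 genes, LNCaP-enzaR over parental, with bars for the SE and lines at the fold of 1.5 that the threshold requires. The 6 genes past the threshold lie to the left of that limit, from −2.55 (UHRF1) to −1.08 (MBD2), and TET3, DNMT3A and TET2 lie inside it.

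UHRF1 and DNMT1 are known to be transcribed most in the S phase of the cell cycle, so their levels were set beside 25 other genes of DNA replication and S phase. All 25 were lower in LNCaP-enzaR past the threshold, with a median log2 fold change of −1.55 and a range of −2.25 to −0.90. Over all genes tested, 19.5% were lower. Examples are CDC45, a helicase subunit, at 66.4 ± 2.50 CPM in parental cells and 13.9 ± 0.735 in LNCaP-enzaR (log2 fold change −2.25), TYMS, thymidylate synthase, at 85.6 ± 2.06 and 19.8 ± 0.404 (−2.11, with 47.9% of its exonic bases in exons of another gene), and RRM2, a subunit of ribonucleotide reductase, at 312 ± 9.84 and 87.5 ± 2.41 (−1.83). UHRF1 over the mean of that list went from −0.25 ± 0.069 to −1.19 ± 0.085 on the log2 scale inside the libraries, a shift of −0.94. DNMT1 over the same list went from 1.03 ± 0.028 to 1.29 ± 0.050, a shift of 0.25 in the other direction. Neither ratio overlapped between the lines. The part of the S phase genes in the levels of the 9 genes was not tested.

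The promoters of the 9 genes were searched for the 8-letter words TTTCCCGC, TTTCGCGC, TTTGCCGC and TTTGGCGC on both strands. These words are forms of the site bound by E2F factors, which regulate S phase transcription. RefSeq windows of 300 bases (250 before and 50 after an annotated start, GRCh38.p14) were at hand for all 9 genes, 20 windows in all. A word was present in 3 windows, all of UHRF1 or DNMT1. Of all 35116 windows 3.31% held a word, and of the 27 windows at hand for 21 of the 25 S phase genes 51.9% did. The windows of the other 7 genes, DNMT3B, TET1, UHRF2 and MBD2 among them, held none, which says only that these letters are not in these windows. Not every window lies at the start of the gene as the count table gives it. Those of UHRF1 lie 6421 to 7287 bases inside the gene, that of DNMT1 36333 bases and the only DNMT3B window 17467 bases, so the sequence at the table's own start of these 3 genes was not searched. The windows of UHRF2 (48 bases) and MBD2 (0 bases) lie at or next to it. The stretches below run from 170 bases before to 30 after a start, and are shown to set UHRF1 and DNMT1, which hold a word (in capitals), beside UHRF2 and MBD2, which fell as well and hold none.
UHRF1, chr19:4909331-4909530, plus strand: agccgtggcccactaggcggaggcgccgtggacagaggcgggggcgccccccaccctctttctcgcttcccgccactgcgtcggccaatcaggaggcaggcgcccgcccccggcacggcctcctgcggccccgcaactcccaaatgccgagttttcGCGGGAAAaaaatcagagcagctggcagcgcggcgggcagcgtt
UHRF1, chr19:4909974-4910173, plus strand: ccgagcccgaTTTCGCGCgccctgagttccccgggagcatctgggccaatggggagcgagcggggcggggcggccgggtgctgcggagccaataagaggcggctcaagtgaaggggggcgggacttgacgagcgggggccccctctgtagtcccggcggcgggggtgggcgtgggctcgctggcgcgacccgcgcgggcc
DNMT1, chr19:10194924-10195123, minus strand: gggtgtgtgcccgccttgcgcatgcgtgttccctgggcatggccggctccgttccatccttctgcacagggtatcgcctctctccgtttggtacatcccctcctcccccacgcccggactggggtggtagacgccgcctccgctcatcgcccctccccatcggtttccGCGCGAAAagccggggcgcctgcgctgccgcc
UHRF2, chr9:6413029-6413228, plus strand: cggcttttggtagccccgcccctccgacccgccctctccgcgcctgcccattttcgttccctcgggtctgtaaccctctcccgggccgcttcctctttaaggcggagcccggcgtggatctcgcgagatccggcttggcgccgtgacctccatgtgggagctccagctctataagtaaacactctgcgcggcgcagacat
MBD2, chr18:54224640-54224839, minus strand: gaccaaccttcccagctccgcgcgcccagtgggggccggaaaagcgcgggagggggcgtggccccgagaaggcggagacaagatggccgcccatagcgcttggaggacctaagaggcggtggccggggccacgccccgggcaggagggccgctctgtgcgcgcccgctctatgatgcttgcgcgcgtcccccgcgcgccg
Counted from the start, the words begin at base −14 and at base −160 in the UHRF1 windows and at base −2 in that of DNMT1. The windows of UHRF1 held 36 to 46 CpGs that of DNMT1 held 30, that of UHRF2 26 and that of MBD2 32, while the DNMT3B window inside the gene held 3. The median was 27 over the 20 windows and 14 over all windows.

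The genes with the levels most like UHRF1 across the 6 libraries, by the distance between log2 CPM values centred on their mean, were TANC1 (distance 0.163), MSI1 (0.174) and MYBL2 (0.184), out of 10182 genes considered. Their log2 fold changes were −2.47, −2.80 and −2.59. For DNMT3B they were GREB1 (0.0959), SMPD4 (0.128) and AIF1L (0.130), with log2 fold changes of −1.64, −1.57 and −1.54. With 6 libraries in a pair of lines, the distance reflects mainly the size of the difference between the lines.

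Chromosomal neighbours of the 6 genes that fell were also described, and in no such neighbourhood was the median log2 fold change under −0.07. Within 5 Mb of UHRF1, 71 of 269 tested genes were higher past the threshold and 35 lower, with a median log2 fold change of 0.12. Around UHRF2 the median of 39 genes was 0.62, with 21 higher and 2 lower, whereas UHRF2 itself was at −1.17. Around DNMT1, DNMT3B, TET1 and MBD2 the medians lay between −0.07 and 0.12. The neighbours of the genes not past the threshold were higher by median than those of UHRF1, DNMT1, DNMT3B, TET1 and MBD2. They were lower by median than those of UHRF2. For DNMT3A the median of 89 genes was 0.42, with 36 higher and 6 lower. For TET3 the median of 92 genes was 0.49 (43 higher, 5 lower), and for TET2 that of 49 genes was 0.29 (17 higher, 7 lower). DNMT3A, TET3 and TET2 themselves were at 0.04, −0.17 and 0.30. The part of the neighbourhood in the levels of these genes was not tested.

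Partners of the 9 genes were then described from lists drawn up by function. Of 7 further genes of maintenance methylation, 5 were lower past the threshold and 0 higher, with a median log2 fold change of −1.83. Of all genes tested, 19.5% were lower. The 5 genes, from −1.94 to −1.19, lay within the range of the S phase genes (−2.25 to −0.90). The part of S phase in their levels was not tested. HELLS, the remodelling ATPase that opens heterochromatin to methylation, was at 43.6 ± 2.19 CPM in parental cells and 11.5 ± 1.59 in LNCaP-enzaR (−1.92, SE 0.093, adjusted p = 2.50e-10, edgeR). CDCA7, its activating partner, was at 26.8 ± 3.47 and 6.97 ± 0.688 CPM (−1.94, SE 0.105, adjusted p = 7.26e-10, edgeR). The paralog CDCA7L fell by 1.83 on the log2 scale, and 21.4% of its exonic bases lie in exons of DNAH11. USP7, a deubiquitinase that binds DNMT1 and UHRF1, and ZBTB24 were not past the threshold, at −0.49 and −0.16.

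Of 18 genes of base excision and TET function, 6 were higher and 5 lower, with a median of −0.13. Over all genes tested, 23.3% were higher and 19.5% lower. CXXC4, among the 6, had 0, 0 and 2 counts in parental cells and 27, 27 and 48 in LNCaP-enzaR. It passed the filter through LNCaP-enzaR alone. TDG, the glycosylase that removes the oxidized bases made by TET enzymes, was at 93.2 ± 1.95 CPM in parental cells and 37.3 ± 1.5 in LNCaP-enzaR (−1.32, SE 0.059, adjusted p = 9.86e-11, edgeR). NEIL3, another DNA glycosylase, fell by 1.77 from 12.7 ± 0.833 to 3.73 ± 0.574 CPM. In the opposite direction, CXXC5, a CXXC protein that binds unmethylated CpGs, rose by 0.87 from 36.5 ± 0.808 to 66.5 ± 2.75 CPM.

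Among 9 other genes from families of methyl-CpG binding proteins, 1 was higher past the threshold and 0 lower, with a median of −0.13. The shares over all genes tested were 23.3% higher and 19.5% lower. The list is by family, and binding of each protein to methylated DNA was not examined. ZBTB4, a zinc finger reader of methylated DNA, was at 46.5 ± 1.39 CPM in parental cells and 99.7 ± 4.61 in LNCaP-enzaR (1.10, SE 0.060, adjusted p = 7.77e-10, edgeR), whereas MBD2 fell. MBD4 was just inside the limit at −0.58, and passed it with library totals (−0.61), and MBD6 at 0.49 passed it with upper-quartile scaling (0.59). Of the other members of the methyltransferase family, TRDMT1, an RNA methyltransferase, was at −0.25 (adjusted p = 0.0531, edgeR), and DNMT3L had at most 2 counts in any library.

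The NuRD complex, which MBD2 recruits, had 1 of 13 tested genes higher and 4 lower, with a median of −0.24. Among all genes tested, 23.3% were higher and 19.5% lower, 42.7% together. MTA2 went from 296 ± 2.13 to 134 ± 8.09 CPM (−1.15, SE 0.057, adjusted p = 2.94e-10, edgeR) and HDAC2, a histone deacetylase of the complex, from 244 ± 5.39 to 126 ± 4.66 (−0.95, SE 0.053, adjusted p = 1.06e-09, edgeR). HDAC1, its other deacetylase, was at 219 ± 4.56 and 187 ± 1.11 CPM (−0.23, adjusted p = 0.0011, edgeR), under the minimum fold. CDK2AP1 fell by 0.85, with 24.2% of its exonic bases shared with exons of another gene. Of 12 tested genes of the supply and use of the methyl donor S-adenosylmethionine, 0 were higher and 4 lower, with a median of −0.44. The same shares of all genes, 23.3% and 19.5%, stand beside these counts. The largest decrease among the named ones was that of GNMT, the glycine methyltransferase that consumes the donor, from 6.32 ± 0.424 to 1.36 ± 0.110 CPM (−2.21, SE 0.128, adjusted p = 1.60e-09, edgeR). MTHFD1 (−0.74) and SHMT1 (−0.65), enzymes of the folate cycle, fell by less, and SHMT1 was inside the limit with upper-quartile scaling (−0.55).

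**Figure D4:**
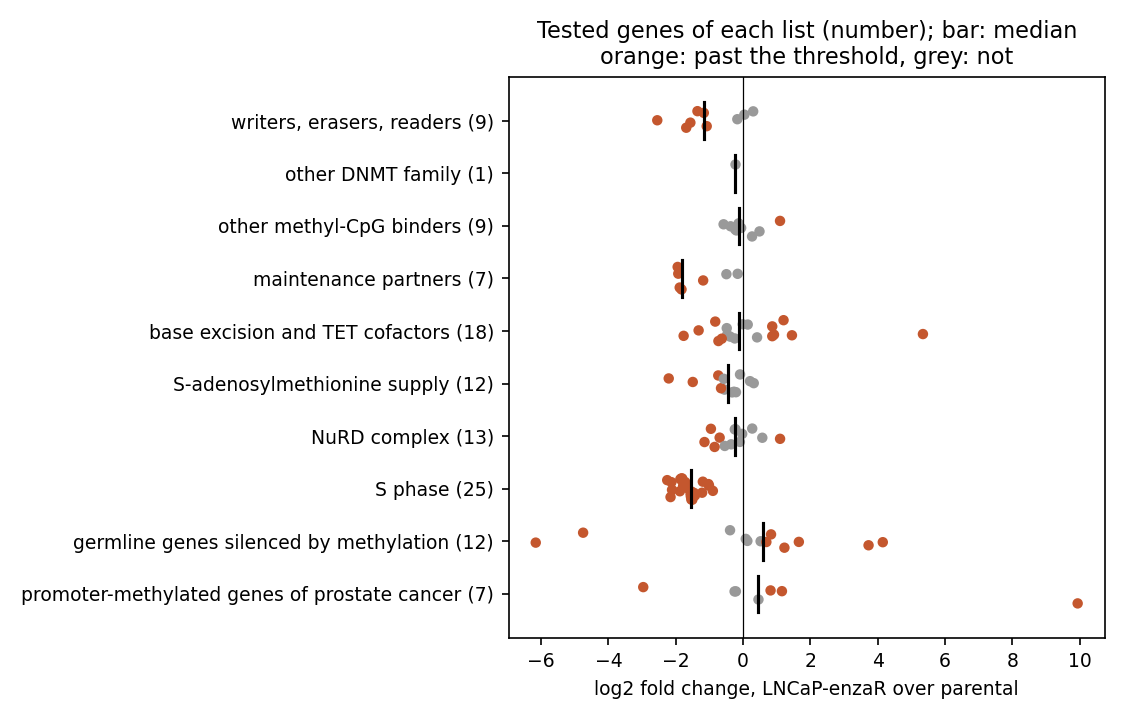
Log2 fold change, LNCaP-enzaR over parental, of every tested gene in the 9 genes and in each list by function, with a point per gene and a mark at the median of each list. The S phase genes (median −1.55) and the maintenance partners (−1.83) lie to the left of 0, and the germline genes spread to both sides. In the germline list and in that of base excision and TET cofactors, 1 gene each had at most 3 counts in every library of a line, so its point is a fitted value and no bound.

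Genes that are commonly silenced by promoter methylation were examined last. Of 22 germline genes listed, 12 were tested, while 5 were not in the count table and 5 did not pass the filter. Of the 12 tested, 6 were higher in LNCaP-enzaR and 2 lower, beside 23.3% and 19.5% of all genes tested. The median log2 fold change was 0.61. TDRD1, the lowest of the 12 at −6.16, had 1, 0 and 1 counts in LNCaP-enzaR. With its level there set at 3 counts it stays below the median, so the median could not move. MAEL, among the 6 higher, had 0, 4 and 0 counts in parental cells and 15, 33 and 11 in LNCaP-enzaR. Genes with few counts in 1 line could pass the filter through the other line, so these numbers rest partly on the filter. MAGEC1 was at 1.34 ± 0.269 CPM in parental cells and 23.7 ± 0.664 in LNCaP-enzaR (4.15, SE 0.121, adjusted p = 1.47e-12, edgeR), whereas MAGEA4 went from 16.2 ± 1.68 to 0.602 ± 0.137 (−4.75, SE 0.147, adjusted p = 2.57e-12, edgeR). PRAME (0.69), SYCP3 (1.66) and MAGEC2 (1.23) rose. The germline genes thus moved in both directions, with 6 of the 12 tested higher and 2 lower. The part of DNMT1 and UHRF1 in their levels was not tested.

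Of 14 genes known for promoter methylation in prostate cancer, 7 were tested, 3 of them higher and 1 lower, with a median of 0.46. Over all genes tested, 23.3% were higher and 19.5% lower. TIMP3, an inhibitor of metalloproteinases, had 7, 3 and 3 counts in the parental libraries and 4392, 4670 and 4642 counts in LNCaP-enzaR. The fitted log2 fold change of 9.94 (adjusted p = 3.72e-15, edgeR) rests on those few parental counts. TIMP3 passed the filter through LNCaP-enzaR alone. MGMT, a DNA repair gene, rose by 0.82 from 32.1 ± 2.33 to 56.6 ± 6.24 CPM. RARB, a retinoic acid receptor, fell by 2.97 from 9.88 ± 0.345 to 1.26 ± 0.234 CPM. GSTP1 was among the genes that did not pass the filter, with at most 2 counts in any library of either line.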

How the data were processed

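Polyadenylated RNA of parental LNCaP and LNCaP-enzaR, 3 flasks each per the labels, was sequenced as paired-end reads. According to the study's methods, the authors used Cutadapt for adapter removal, STAR for alignment to GRCh38 and featureCounts for counting per gene. The deposited values are raw counts, not normalized. Strand setting and the treatment of reads mapping to several genes were not given in the sources used here, so values of overlapping genes are uncertain. Groups and replicate numbers came from the sample titles.

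Both lines were compared in edgeR 4.0.16 under R 4.3.3 (filterByExpr, TMM, robust quasi-likelihood F-test without covariates) and Benjamini-Hochberg adjustment over 19711 genes. The study's methods name DESeq2, which was run (1.42.0) as an alternative and is otherwise replaced by edgeR. The threshold is that of the study. The test was checked on simulated counts. P-values measure the spread between flasks of each line, and limits given by 3 counts cover counting error only. Coordinates are those of the table, counted from 1. A later annotation of the same build, GENCODE v44, gave strand, exon length and exon overlap: 99.8% of the identifiers matched, 91.4% of them with the same span, and of the 9 genes 8 had the same span, DNMT3B being the exception. Promoter sequences are from RefSeq.

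The 9 genes and the 9 lists by function (161 symbols with the cell type markers, of which 6 were not analysed here) were chosen with earlier results of these data known. Named from each list were the 3 genes with the smallest p-value and a mean of at least 1 CPM, every gene of a list with at most 2, and every gene past the threshold of the germline and prostate cancer lists with a mean of at least 1 CPM in either line. USP7, ZBTB24, HDAC1, GSTP1, CXXC4, TDRD1, MAEL and the cell type markers were named after their values were seen. Genes resembling UHRF1 and DNMT3B needed a mean of at least 5 CPM. Alternatives were DESeq2, other scalings and filters, leaving out the mitochondrial genes, leaving out each library, a block for the replicate number and other thresholds.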

Additional observations from a re-analysis of the deposited data

How the results depend on the processing

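Over 15 alternatives, 8 of the 9 genes kept their direction and their side of the threshold in every fit, and 134 of 135 fits did so in all. The exception was DNMT3A, whose log2 fold change ran from −0.0085 to 0.079 when a library was left out, the negative value arising without parental replicate 1. The log2 fold change of UHRF1 ran from −2.58 to −2.45 and that of MBD2, the smallest past the threshold, from −1.11 to −0.98. Upper-quartile scaling moved the median of all genes by 0.10 on the log2 scale, and the values of the 9 genes moved up with it. The adjusted p of TET3 ran from 0.00772 to 0.300 and that of TET2 from 5.09e-06 to 0.0254. Of all genes, 13074 were called with no minimum fold and 5561 with a minimum fold of 2, against 8425, and the cause lies in the threshold itself. Among the other genes from methyl-CpG binding families, 2 were called with library totals and 2 with upper-quartile scaling, against 1. With a library left out, 1 to 2 were called. MBD4 was the gene added without parental replicate 2 or 3 or LNCaP-enzaR replicate 2 or 3. With the longest annotated transcript as the length, 4 of the 9 genes kept their place in the order of levels in parental cells and 3 in LNCaP-enzaR.

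The replicate numbers were not found to pair the flasks, since libraries with the same number deviated from the mean of their line with correlations of −0.28, 0.01 and −0.16. With the replicate block, 8212 genes and 6 of the 9 were past the threshold, and the adjusted p of TET3 was 0.0628. Counting depth limits TET1 most, which had 152 to 559 counts a library.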
